A study of Zea mays with 24 samples.

Results

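The comparison concerned 1.5 mm anthers of 2 maize genotypes, A619 and the hybrid ND101/W23, each read against W23 on 3 arrays, 6 of the 24 arrays of the series. The A619 plants were a derivative of that inbred line, ND101/W23 was the hybrid obtained with W23 pollen on ND101, and the W23 plants carried the bz2 mutation, which blocks anthocyanin accumulation. All were male-fertile Corn Belt Dent material raised in 1 field, and the anthers of a sample were staged tissue of the same tassel. The hybrid carries a W23 genome, so that 1 of its parents is the line on the other channel, and ND101 itself is not among the samples. A whole 1.5 mm anther holds several cell types, and its RNA was measured as 1 sample. Each array set a line against W23 in 2 colours, with 60-mer probes drawn from EST assemblies. The same W23 sample served the A619 array and the ND101/W23 array of a replicate number, so it is common to both log2 ratios of a number. Each array was read and normalized on its own, so the W23 signal need not cancel exactly in the difference between them. That difference, A619 minus ND101/W23, is the quantity reported below. A value of 1 means 2-fold more and a value of -1 means 2-fold less hybridization signal of a probe in A619. The study cautions that cross hybridization may be more severe in maize, given polymorphism between inbred lines. It also holds that probes of this length are likely to hybridize well across lines. For a single probe, a sequence match that differs between lines and a different amount of transcript cannot be told apart here.

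At 1.5 mm the maize anther is close to meiosis. Its locules hold the pollen mother cells, surrounded by wall layers of which the innermost, the tapetum, feeds the meiotic cells and later supplies the pollen wall. Genes of cell division, wall loosening, lipid secretion and energy supply are among those known to be active as an anther passes this stage, and Ms45 of the tapetum is one of those required for male fertility in maize. Product names below rest on the best protein match of an EST assembly, so that each stands for similarity of sequence. Probes without a usable name are given by their number in the deposited table.

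Ratios carry no level. The study's own lists of transcripts detected in a single tissue were the guide to which probes should be bright in these anthers. The 6 arrays held 7886 to 7900 values each, with medians of -0.03 to 0.04. The direction of the ratios was not settled by the dyes, because the labels and the study's design diagram name opposite dyes. It was taken from the ND101/W23 ratios that the study tabulates for its qRT-PCR panel, and A619 was read the same way. With the opposite reading, every higher becomes a lower. The ratios of the 3 A619 arrays correlated at 0.658 to 0.785 over 7873 probes. Among the ND101/W23 arrays, replicates 1 and 3 correlated at 0.673, while replicate 2 stood apart, at 0.108 with replicate 1 and 0.224 with replicate 3. The A619 array of replicate 2, which shares its W23 sample, correlated at 0.468 with it. Lists of transcripts assigned to other organs were read as markers of those organs. By the test described next, 21 of 857 measured probes on the leaf list were higher and 23 lower in A619 (5.13% called, beside 10.4% of all probes), with a median difference of 0.03. On the pollen list 10 of 319 were higher and 1 was lower (3.45% called), with a median of 0.07.

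A619 and ND101/W23 differed at 822 of 7873 probes (10.4%) in 1.5 mm anthers, 380 of them higher (4.83%) and 442 lower (5.61%) in A619. A probe was called when limma gave an adjusted p under 0.05 for the mean of the 3 differences and all 3 had the same sign. The differences called ranged in size from 0.61 to 4.77, with a median of 1.09. A size of at least 1 was reached by 481 probes, 245 higher and 236 lower in A619, and a size of at least 2 by 106 probes, 66 higher and 40 lower. The 3 A619 ratios lay clear of the 3 ND101/W23 ratios at 335 of the 380 probes called higher and at 379 of the 442 called lower. The calls were made on these same ratios, so such a separation is favoured by the choice and adds no support. It was not counted over all probes. In whole anthers, fewer cells of a type and less RNA per cell cannot be told apart. With 2 pairs of arrays in place of 3 the test called 33 probes without replicate 1, 0 without replicate 2 and 0 without replicate 3, while 1800, 2145 and 1528 probes then had an unadjusted p under 0.05, beside 2395 in the full comparison. Without the pairing 302 probes were called, and 365 when all arrays were scaled to the same median absolute deviation. The balance of directions turned with these settings, to 164 higher and 138 lower without the pairing, 189 and 176 after the scaling, and 27 and 6 without replicate 1.

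**Figure D1:**
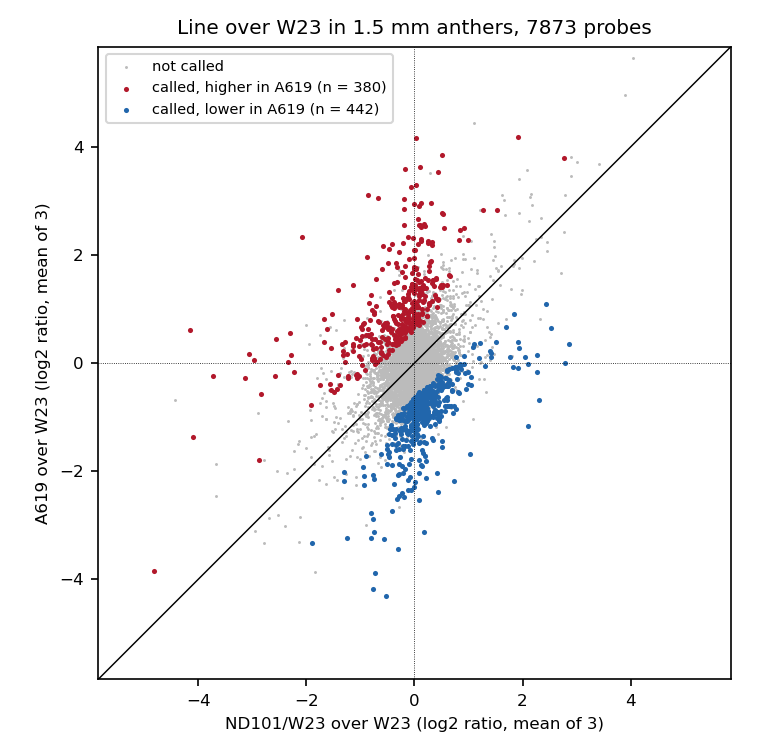
Mean log2 ratio over W23 in 1.5 mm anthers for each of 7873 probes, A619 on the vertical and ND101/W23 on the horizontal axis. The line marks equal ratios; the 380 probes called higher in A619 lie above it and the 442 called lower lie below it, many of them near 0 on the ND101/W23 axis.

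A619 usually lay farther from W23 than the hybrid did, over all probes as well as at the called ones. Its mean ratio was farther from 0 than that of the hybrid at 282 of the 380 probes called higher (74.2%) and at 365 of the 442 called lower (82.6%), beside 66.6% of all probes. The A619 arrays were also wider as a whole, with SDs of 0.70 to 0.73, against 0.60 to 0.64 in ND101/W23. The median ratio of the probes called higher was 0.91 in A619 and -0.19 in ND101/W23, and that of the probes called lower was -0.89 in A619 and 0.14 in ND101/W23. Both lines lay on opposite sides of W23 at 235 of the probes called higher and at 273 of those called lower. These probes were called for a gap between the same ratios, so opposite sides are favoured by the choice. The share over all probes was not counted.

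Names were available for few of these probes. Only 115 of the 822 had a product name, 40 higher and 75 lower, and 89 of the 115 come from lists of transcripts that the study detected in another tissue, so that their 1.5 mm ratios may rest on signals near the detection threshold. Signal intensities are not analysed here. The 1.5 mm anther list, whose members the study detected in this tissue, is described first, followed by the qRT-PCR panel and the cell cycle list, whose members were not chosen for detection at 1.5 mm.

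Transcripts that the study assigned to 1.5 mm anthers went both ways. Of 126 measured probes of that list, 11 were higher and 9 lower in A619 (15.9% called, beside 10.4% of all probes). The median difference was -0.09, beside 0.01 over all probes. The study drew the list from these same arrays, as transcripts detected at this stage in all 3 genotypes. Ms45 (TC276985), a tapetal gene whose product resembles strictosidine synthase, was among those that rose. Its ratios over W23 were 0.09, 1.42 and 0.36 in A619, against -2.0, 0.67 and -1.25 in ND101/W23. The groups overlapped, since the second ND101/W23 array lay above 2 of the A619 arrays, but within each replicate number A619 was higher, by 2.09, 0.75 and 1.61. The mean difference was 1.48 ± 0.28 (SE, n = 3 pairs; limma adjusted p = 0.042), and the call was lost without the pairing (limma adjusted p = 0.29), after scaling the arrays to 1 spread (limma adjusted p = 0.095) and without any 1 replicate.

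A GDSL-motif lipase-like transcript (TC273805), of a family of secreted lipid hydrolases that is large in anthers, showed ratios of 1.80, 2.28 and 1.48 in A619, against -0.85, -0.50 and -0.13 in ND101/W23. No array of one line reached the other, and the difference was 2.35 ± 0.27 (limma adjusted p = 0.016). The phospholipid-transporting ATPase-like transcript TC276340, of the family of membrane lipid flippases, was higher in A619 by 1.44 ± 0.18, and the GOS12-like Golgi SNARE TC265590, a membrane fusion protein, by 0.79 ± 0.13. An initiation factor-like transcript of translation (TC263197) was the most even of the group, at 0.24, 0.46 and 0.37 in A619, against -1.21, -1.02 and -1.19 in ND101/W23. It lay near W23 in A619 and below it in the hybrid on every array.

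The transcript of this list with the largest fall was similar to NADP-dependent malic enzyme (TC260239), which releases carbon dioxide from malate and yields NADPH. Its ratios were -4.43, -3.87 and -4.22 in A619, against -2.04, 1.64 and -1.89 in ND101/W23. Both lines were below W23 in replicates 1 and 3, and only the second ND101/W23 array was above it, so that the pair differences were -2.39, -5.51 and -2.33 (mean -3.41 ± 0.68, limma adjusted p = 0.047). The call was lost without the pairing (limma adjusted p = 0.10), after scaling the arrays (limma adjusted p = 0.11) and without any 1 replicate. The product listed as FalseDAD1 (TC276057) had ratios of -2.48, -1.94 and -2.08 in A619, against -0.28, 0.23 and -0.33 in ND101/W23. The groups were well apart, with a difference of -2.04 ± 0.16. The At1g65820-like transcript TC258155 was below W23 in both lines and lower in A619, at -3.69, -2.88 and -3.17, against -1.88, -0.61 and -1.24 in ND101/W23. The remaining falls with a function were an acyl-peptide hydrolase-like transcript (-1.32 ± 0.16), a 3-oxoacyl-carrier-protein synthase-like transcript of fatty acid synthesis (-0.97 ± 0.18, read by a probe on the opposite strand of its EST) and subunit C of the vacuolar proton pump (-0.83 ± 0.16).

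The highest called difference belonged to an unknown product of the same list, probe 3673. Its ratios were -4.02, 6.10 and -0.22 in A619, against -6.77, 0.41 and -6.09 in ND101/W23. These ratios swung over a wide range and the groups overlapped, but both arrays that share a W23 sample moved together, and A619 exceeded the hybrid by 2.75, 5.69 and 5.87 (mean 4.77 ± 0.66, limma adjusted p = 0.023). That call was lost without the pairing (limma adjusted p = 0.41), without replicate 2 (limma adjusted p = 0.092) and without replicate 3 (limma adjusted p = 0.16). The lowest called difference was that of probe 9285, with no name here, at -1.53, -6.02 and -5.41 in A619, against 0.01, -1.63 and 0.02 in ND101/W23. Here the first A619 array overlapped the second array of the hybrid, and the mean was -3.79 ± 0.75 (limma adjusted p = 0.046). It too was lost without the pairing (limma adjusted p = 0.13), after scaling (limma adjusted p = 0.070), without replicate 2 (limma adjusted p = 0.15) and without replicate 3 (limma adjusted p = 0.22).

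Among the 24 measured transcripts of the qRT-PCR panel, 5 were higher and 1 was lower in A619 (25.0% called, beside 10.4% of all probes). The median difference was 0.28. This panel was selected by the study and is small. Primer pairs of the 3 members with the largest differences are given, since they locate the transcripts independently of array numbering, and both primers of a pair are written in lower case as the study designed them.
TC263246 first primer: ggacatgcattccaagaaac
TC263246 second primer: tggaagaagctgttcaggtc
TC259322 first primer: cccctacttcgatctggaca
TC259322 second primer: tctgaatggaacctgctgtg
CF050423 first primer: ttcgccaaattacccgaag
CF050423 second primer: attcaatttggcaggcagaa

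The At3g20475-like transcript TC263246 had ratios of 1.80, 2.91 and 1.79 in A619, against -1.50, 0.50 and -0.77 in ND101/W23. Every A619 array was above W23 and above every array of the hybrid, with a difference of 2.76 ± 0.22 (limma adjusted p = 0.010). CR14 (TC259322), a subunit of the ubiquinol-cytochrome c reductase of the respiratory chain, was below W23 in both lines, at -1.23, -1.42 and -1.46 in A619, against -4.42, -3.96 and -3.91 in ND101/W23. The replicates of each line were tight, and A619 was higher than the hybrid by 2.73 ± 0.20 (limma adjusted p = 0.010). Photosystem II protein K (CF050423), a small protein of the photosystem core, stood at 1.57, 1.62 and 1.80 in A619, against -0.29, 0.23 and -0.07 in ND101/W23. The hybrid was near W23 there, and the difference was 1.71 ± 0.16 (limma adjusted p = 0.012).

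Chloroplast ribosomal protein L3 (TC270449) was higher in A619 by 1.01 ± 0.13, with ratios of 0.80, 1.11 and 1.05 in A619, against -0.13, -0.04 and 0.11 in ND101/W23. Tubulin beta-6 (TC248696), a microtubule subunit, was below W23 in both lines and less so in A619, at -0.76, -0.07 and -0.61, against -1.89, -1.03 and -1.39 in ND101/W23 (difference 0.96 ± 0.14). The single fall of the panel was the beta-expansin TC278658, of the grass family of wall-loosening proteins that includes the group 1 pollen allergens. It was above W23 in both lines, at 0.95, 0.26 and 0.81 in A619, against 1.65, 1.32 and 2.09 in ND101/W23, and the arrays of the lines did not overlap (difference -1.01 ± 0.17, limma adjusted p = 0.033). A beta-expansin probe of the pollen list, TC259383, which reads the opposite strand of its EST, was also called lower, by -0.79 ± 0.15.

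Several panel members had large means without passing the test. Photosystem I subunit III (TC248243) had ratios of 1.00, 2.61 and 1.50 in A619, against -1.31, 2.38 and -0.55 in ND101/W23 (difference 1.53 ± 0.44, limma adjusted p = 0.094). Replicate 2 of the hybrid was as high as A619 there, unlike replicates 1 and 3. The dehydration-induced ERD15 transcript (TC248975) differed by 1.53 ± 0.51, with the first pair nearly equal, at 1.20 in A619 and 1.21 in ND101/W23. Histone H2A (TC247876), a nucleosome component, had a mean of 1.27 ± 1.00 with a ratio of -4.80 on the first ND101/W23 array, and was -0.28 without replicate 1. The 15 other panel members that were not called differed by -0.54 to 1.04.

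**Figure D2:**
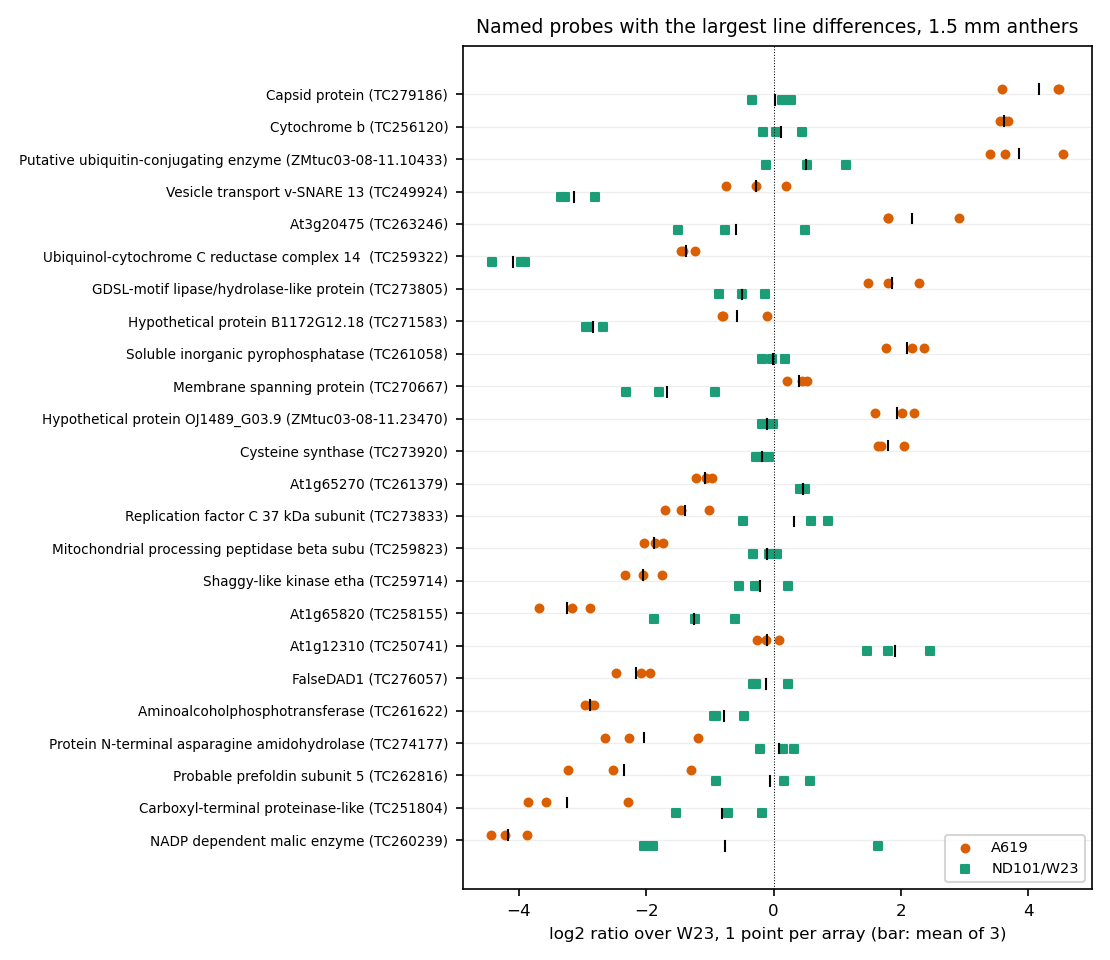
Log2 ratios over W23 on each array of the 12 named products that were called with the highest and the 12 with the lowest difference, in A619 (circles) and ND101/W23 (squares), with bars at the mean of 3. In 12 rows A619 lies to the right of the hybrid and in 12 to the left. The hybrid is the line farther from W23 in some rows, among them the v-SNARE, CR14, TC271583, TC270667 and the At1g12310-like transcript.

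The cell cycle list, 69 measured transcripts that the study gathered for division, had 7 higher and 4 lower (15.9% called, beside 10.4% of all probes). Its median difference was 0.03. The kinesin heavy chain and the kinesin-like calmodulin-binding protein below are also on the 1 mm anther list. Of the 7 rises, 4 were probes of motor proteins or tubulins. The others were both HSP82 probes and a transposase-like transcript (TC275330, 1.16 ± 0.22). The list matched by words for the cytoskeleton had 4 higher and 1 lower of 44 (11.4% called, close to the 10.4% of all probes). The kinesin-like transcript TC266049, of the microtubule motors, had ratios of 1.49, 0.64 and 1.00 in A619, against -0.15, -1.0 and -0.11 in ND101/W23. The difference was 1.46 ± 0.17, with no overlap. A kinesin-like calmodulin-binding protein, probe 7064, was higher by 1.28 ± 0.27 and the kinesin heavy chain TC273976 was lower by -0.82 ± 0.13, so that the motors did not share a direction. An alpha-1 tubulin probe was higher by 0.94 ± 0.18, while a second probe on the same assembly (TC268728) differed by 0.28 ± 0.15 and was not called, and both read the opposite strand. Both probes of the chaperone HSP82 (TC259108) were called higher, by 0.78 ± 0.13 and 0.63 ± 0.13, but they too read the opposite strand and overlap one another, at positions 1314 to 1255 and 1326 to 1267 of the assembly. The largest fall of the list was the At1g12310-like transcript TC250741. A619 was near W23, with ratios of 0.09, -0.12 and -0.26, while the hybrid exceeded it, with 2.46, 1.47 and 1.80 (difference -2.01 ± 0.19, limma adjusted p = 0.012). A PP1-like protein phosphatase, which removes phosphate from serine and threonine, was lower in A619 by -0.90 ± 0.17.

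Of 382 probes that read the opposite strand of their EST 10 were called (2.62%), and of 1188 forward probes 131 were called (11%). The difference was not tested, and 276 of the 382 reverse probes are on the leaf list and 66 on the pollen list, where few probes were called on the whole. One assembly, picked after its values were seen, carried a probe on each strand over nearly the same stretch. For TC272631 the forward probe was lower in A619 by -0.97 ± 0.14, and the reverse probe, which was not called, differed by 0.14 ± 0.19.

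Among the tissue lists, the transcripts assigned to 1 mm anthers and to no other tissue had the median farthest from 0. Of 218 measured members, 51 were lower and 6 higher in A619 (26.1% called, beside 10.4% of all probes). The median difference was -0.52, beside 0.01 over all probes. The pairs gave medians of -0.56, -0.34 and -0.64. Below 0 in all 3 pairs were 127 of 218 members, and 27 were above 0 in all 3. Over all 7873 probes, 2140 were below and 2030 above 0 in all 3 pairs. Array medians of the list were -0.44, -0.50 and -0.38 in A619, against 0.08, -0.16 and 0.19 in ND101/W23, so that A619 was the line below W23. The study chose this list on these samples, as transcripts that were present at 1 mm and not detected at 1.5 mm. The shift is therefore measured on weak signals and is not independent evidence of a direction. All 51 calls of lower were lost when any 1 replicate was left out, whereas the median was then -0.60 to -0.49. Without the pairing 19 members were called lower, and 16 after scaling the arrays.

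The members called lower were of many kinds, and those with the lowest differences and a product name are given here. The Shaggy-like kinase eta TC259714, of the plant relatives of glycogen synthase kinase that act in brassinosteroid signalling, had ratios of -2.33, -2.05 and -1.75 in A619, against -0.29, -0.55 and 0.22 in ND101/W23. The lines were apart on all arrays, with a difference of -1.84 ± 0.17 (limma adjusted p = 0.011). A subunit of replication factor C (TC273833), the loader of the sliding clamp at replication forks, had ratios of -1.02, -1.70 and -1.46 in A619, against 0.59, -0.48 and 0.86 in ND101/W23. Its difference was -1.72 ± 0.24, and every A619 array was below W23. The beta subunit of the mitochondrial processing peptidase (TC259823), which removes import signals from proteins entering the mitochondrion, had ratios of -1.86, -1.73 and -2.04 in A619, against -0.32, -0.07 and 0.06 in ND101/W23 (difference -1.77 ± 0.17). The hybrid was near W23 for this transcript.

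The carboxyl-terminal proteinase-like transcript TC251804 was the lowest of the list, at -3.58, -3.86 and -2.28 in A619, against -0.71, -1.53 and -0.18 in ND101/W23 (difference -2.43 ± 0.19). Singled out after their values were seen, for their link to the cell cycle, were a B-type cyclin, which drives entry into mitosis (TC265990, -1.35 ± 0.27), a retinoblastoma-like protein, a brake on S phase (TC252199, -0.90 ± 0.13), and a FAS1-like protein, named for a subunit of chromatin assembly factor 1 (AI881422, -0.76 ± 0.15). A cdc2-like kinase of the cyclin-dependent family, read by an opposite-strand probe, was also lower (CD985164, -1.09 ± 0.15). The kinesin-like calmodulin-binding protein, a member also on the cell cycle list, went the other way (probe 7064, 1.28 ± 0.27). That list as a whole had 7 higher and 4 lower. The largest rise was an unknown product read by an opposite-strand probe (TC252349, 3.78 ± 0.28). Others that rose included a polyribonucleotide nucleotidyltransferase-like transcript (CD651129, 1.91 ± 0.24), an enzyme of RNA turnover in organelles, and a transcriptional adaptor (TC271569, 0.81 ± 0.15).

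In 1 mm anthers the same list did not shift between the lines. The median difference of A619 minus ND101/W23 was 0.07 there, with 0.15, 0.12 and -0.03 in the 3 pairs, and 0 members were called higher and 1 lower. Tested for each probe as a contrast of both stages, 93 of the 218 members had a lower line difference at 1.5 mm than at 1 mm at an unadjusted p under 0.05 (42.7%, beside 10.2% of all probes), but 0 of them passed the adjustment over all probes. For the Shaggy-like kinase the difference between the stages was -1.82 ± 0.32 (limma adjusted p = 0.091), and for the replication factor C subunit it was -1.82 ± 0.34 (limma adjusted p = 0.095). When all 4 tissues shared 1 estimate of the spread, 21 of the 218 members passed, all lower at 1.5 mm, beside 78 lower and 32 higher of 7817 probes. The list was chosen for detection at 1 mm and not at 1.5 mm, so that this count is not independent of the choice. Anthers were staged by length, and the study states that genotype and inaccuracies of collection complicate the stage so defined. A difference between the lines and a difference in developmental stage at 1.5 mm therefore cannot be told apart here.

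**Figure D3:**
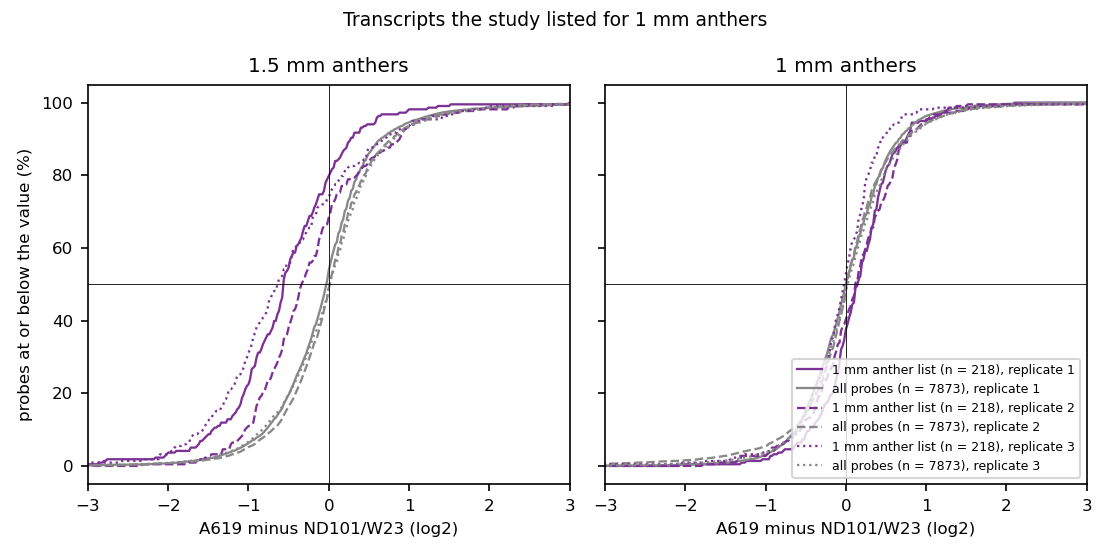
Cumulative share of probes by the difference A619 minus ND101/W23 (log2), in 1.5 mm anthers (left) and 1 mm anthers (right), with 1 curve per replicate number for the 218 members of the 1 mm anther list and for all 7873 probes. In 1.5 mm anthers the 3 list curves lie to the left of all probes, with medians of -0.56, -0.34 and -0.64, and in 1 mm anthers they cross 0 with all probes.

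Groups formed from words in the product names were small, with 5 to 70 measured members, and the share called ran from 0% to 60% (of 5 members), beside 10.4% of all probes. The words also caught some products of another kind, which are named. Kinases and phosphatases had 0 higher and 9 lower of 70 (12.9% called, median difference -0.02). Most of the 9 are named for acting on proteins, among them the Shaggy-like kinase, a serine/threonine kinase (TC265720, -1.32 ± 0.14), a calcium-dependent kinase and the PP1 phosphatase, whereas PFP (TC270472, -1.28 ± 0.13), which works in glycolysis, and phosphomevalonate kinase, of isoprenoid synthesis, act on metabolites. Of the 9, the Shaggy-like kinase, TC265720, PFP, the calcium-dependent kinase and the opposite-strand cdc2-like kinase are also on the 1 mm anther list. That list was lower on the whole, on weak signals and after a choice made on these samples, so the direction of these members is not a separate result. No member of the word groups of 43 transcription factors, 14 histone and chromatin products or 18 redox and stress products was called by limma, while 13, 3 and 6 of them had an unadjusted p under 0.05. The words did not match every product of these kinds. Called probes outside the groups include histone gene his2b5 (-1.37), nfc104 (-1.03), the FAS1-like protein (-0.76), homeobox gene rld1 (0.63) and the transcriptional adaptor (0.81).

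Plastid and photosynthesis products were higher at 4 and lower at 1 of 43 (11.6% called, median difference 0.13). Beside photosystem II protein K and ribosomal protein L3, the plastid ribosomal proteins S31 (TC271187) and L34 (TC270374) were higher, by 1.12 ± 0.17 and 0.76 ± 0.14, and a Rubisco subunit-binding protein, a plastid chaperonin (TC249580), was lower by -0.82 ± 0.15. The photosystem I assembly factor ycf3, listed by the study as a marker, differed by -0.32 ± 0.52 and was not called. The list matched by words for mitochondrion and respiration had 2 higher and 2 lower of 21 (19.0% called, beside 10.4% of all probes). CR14 and a cytochrome b-like transcript were the rises and the processing peptidase was a fall, while the other fall was the vacuolar proton pump subunit, which is not mitochondrial. The cytochrome b-like transcript TC256120, labelled as a partial match of only 5%, had ratios of 3.68, 3.63 and 3.56 in A619, against -0.16, 0.04 and 0.45 in ND101/W23. All 3 A619 arrays were nearly equal and far above W23 (difference 3.51 ± 0.19, limma adjusted p = 0.009), although the study lists this transcript for pollen.

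The list matched by words for lipids and membrane traffic was called at 8 of 30 (26.7%, beside 10.4% of all probes), 4 in each direction. One of the falls, the acyl-peptide hydrolase-like transcript, is a peptidase by name and no lipid enzyme. The VTI13-like v-SNARE TC249924, which guides vesicle fusion, was near W23 in A619, at 0.20, -0.74 and -0.27, against -3.34, -3.27 and -2.80 in ND101/W23. The hybrid was the line that departed from W23 here (difference 2.87 ± 0.25, limma adjusted p = 0.011). Aminoalcoholphosphotransferase (TC261622), which completes phospholipid synthesis, stood at -2.96, -2.86 and -2.82 in A619, against -0.91, -0.94 and -0.47 in ND101/W23. Both lines lay below W23 and the arrays of each were close together (difference -2.11 ± 0.15). Both transcripts are on the leaf list.

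Other transcripts at the ends of the range also came from the lists of leaf or pollen. The probe with the highest difference among named products was a capsid protein-like sequence (TC279186), at 3.58, 4.46 and 4.48 in A619, against 0.13, 0.28 and -0.34 in ND101/W23. It was 4.15 ± 0.28 higher in A619, and the hybrid was near W23. A ubiquitin-conjugating enzyme-like transcript (probe 7013) was higher by 3.34 ± 0.37, soluble inorganic pyrophosphatase (TC261058), which clears pyrophosphate, by 2.11 ± 0.22, and cysteine synthase (TC273920), of sulphur assimilation, by 1.97 ± 0.15. Of those lower, a prefoldin subunit (TC262816), which delivers unfolded tubulin and actin to chaperonin, differed by -2.29 ± 0.20 and an N-terminal asparagine amidohydrolase-like transcript (TC274177), of protein turnover, by -2.12 ± 0.23. For both of these the A619 ratios spread widely, from -3.23 to -1.30 and from -2.64 to -1.18. A hypothetical protein (TC271583, 2.27 ± 0.22) and a membrane spanning protein (TC270667, 2.08 ± 0.34) were higher in A619, with ratios in the hybrid of -2.90, -2.94 and -2.68 for the first of them. A hypothetical protein of the pollen list (probe 3067, 2.04 ± 0.19) was also higher, and the At1g65270-like transcript of the 1 mm list (TC261379, -1.54 ± 0.13) lower.

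Gene symbols of the platform annotation were available for 83 measured probes of 78 genes. Of these probes, 4 were higher and 4 lower in A619 (9.64% called, close to the 10.4% of all probes). The probe of saf1, also named In2-1, a herbicide safener-induced gene (AW360625), had ratios of 2.36, 2.74 and 1.55 in A619, against -0.17, 0.03 and -0.50 in ND101/W23. The difference was 2.43 ± 0.18 with no overlap. The probe of opr8, of the oxophytodienoate reductases that make jasmonic acid (CD952571), had ratios of 0.26, 0.71 and 0.08 in A619, against -0.98, -0.35 and -1.34 in ND101/W23 (difference 1.24 ± 0.14). Jasmonic acid is required for anther development in maize. A polygalacturonase probe (AW424651), of a family that cuts pectin, was higher by 1.08 ± 0.19, while a second probe of the same gene (AW400251) differed by 0.17 ± 0.15 and was not called. Also higher was the probe of rld1, the rolled leaf homeobox gene (CF053514, 0.63 ± 0.13). The histone H2B gene his2b5 (AI691461) was lower by -1.37 ± 0.27, with ratios of -0.03, -1.02 and -0.60 in A619, against 0.69, 0.97 and 0.79 in ND101/W23. The other falls were nfc104, of the nucleosome and chromatin assembly group C (AW282189, -1.03 ± 0.18), Bk2L3 (CF631388, -0.94 ± 0.13) and a gene with no short name (AW042328, -0.83 ± 0.15).

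**Figure D4:**
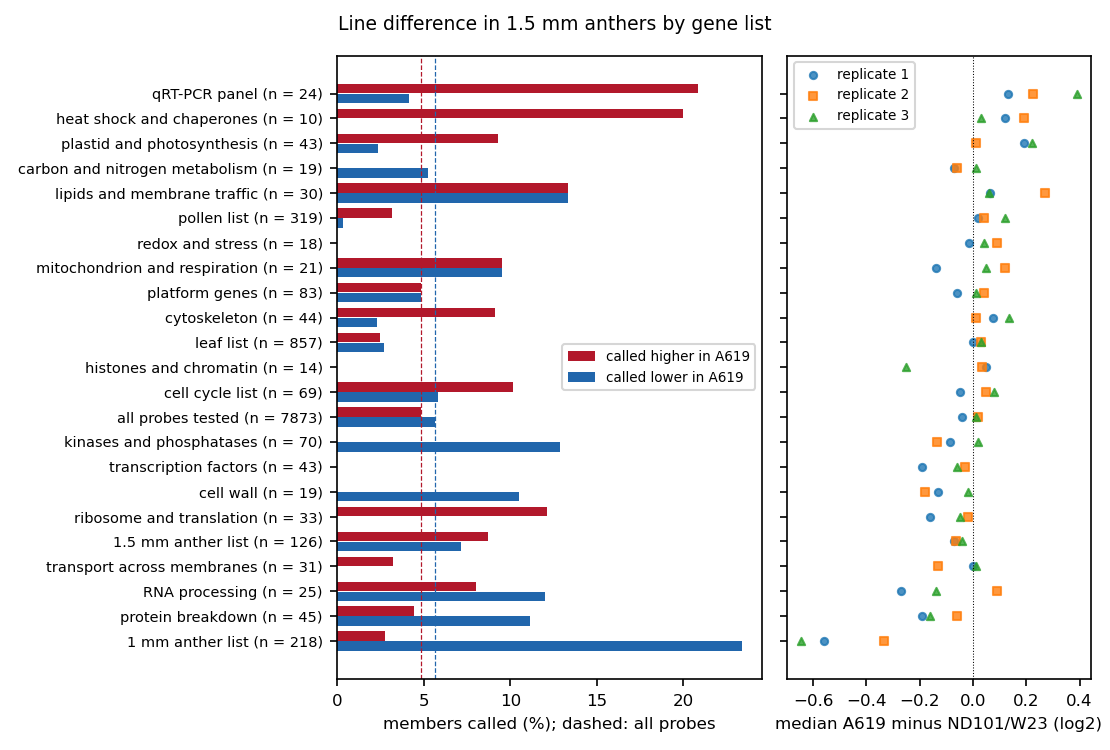
Share of the members of each list called higher or lower in A619 (left, bars, with dashed lines for all probes) and the median difference A619 minus ND101/W23 in each of the 3 pairs (right). The 1 mm anther list, with 51 of 218 members lower, has medians of -0.56, -0.34 and -0.64; the qRT-PCR panel of 24 lies on the other side of 0, up to 0.39 in replicate 3, and the word list with 5 members is not plotted.

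The line difference recurred in the younger anthers, which were separate samples on separate arrays with other W23 samples. Of the 380 probes higher in A619 at 1.5 mm, 313 had a mean above 0 at 1 mm, 230 were above 0 in all 3 pairs (60.5%, beside 21.3% of all probes) and 77 were called higher (20.3%, beside 1.32%). Of the 442 lower probes, 304 had a mean below 0 at 1 mm, 214 were below 0 in all 3 pairs (48.4%, beside 18.1%) and 51 were called lower (11.5%, beside 0.864%). In neither group was a probe called the other way at 1 mm. CR14 had pair differences of 3.19, 2.54 and 2.45 at 1.5 mm, against 1.75, 2.48 and 3.30 at 1 mm, and the v-SNARE had 3.54, 2.53 and 2.53 at 1.5 mm, against 2.42, 4.47 and 3.21 at 1 mm. For both the stages overlapped. Ms45 averaged 1.48 at 1.5 mm and 1.55 at 1 mm, where its pairs of -0.33, 2.78 and 2.21 were too uneven for a call (limma adjusted p = 0.21).

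Tested directly, the line difference at 1.5 mm departed from that at 1 mm at 1 of 7873 probes (0.0127%), probe 19311, which has no name here. Its pair differences were 2.23, 2.80 and 2.86 at 1.5 mm, against -0.18, 0.10 and -0.11 at 1 mm, and the difference between stages was 2.69 ± 0.25 (limma adjusted p = 0.045). At an unadjusted p under 0.05 there were 1278 probes, and 110 passed when the 4 tissues shared 1 estimate of the spread. Inorganic pyrophosphatase was a named transcript with such a pattern, with pair differences of 2.55, 2.20 and 1.59 at 1.5 mm, against -0.71, -0.84 and 0.74 at 1 mm, but its difference between stages of 2.38 ± 0.46 did not pass (limma adjusted p = 0.097).

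More probes were called in the comparison with juvenile leaf, a count that also depends on the spread of the replicates in each tissue. The line difference at 1.5 mm differed from that in leaf at 2209 of 7851 probes (28.1%), 953 higher (12.1%) and 1256 lower (16%) at 1.5 mm. Yet of the probes higher in A619 at 1.5 mm, 126 of 374 were also called higher in leaf (33.7%, beside 18.0% of all probes) and 49 were called lower there (13.1%, beside 15.2%). Of the probes lower at 1.5 mm, 123 of 441 were called lower in leaf (27.9%, beside 15.2%) and 47 higher (10.7%, beside 18.0%). Below 0 in all 3 leaf pairs were 190 of the 441 (43.1%, beside 30.2%), and above 0 in all 3 were 169 of the 374 (45.2%, beside 33.3%). The cytochrome b-like transcript and the malic enzyme kept their direction in leaf, at 5.15 and -3.66, whereas photosystem II protein K and cysteine synthase, at -0.90 and -1.37 in leaf, were on the other side of 0. In mature pollen 98 of 376 probes higher at 1.5 mm were above 0 in all 3 pairs (26.1%, beside 17.4%) and 52 below 0 (13.8%, beside 18.8%). None of the 376 was called in pollen, where 1 of 7839 probes was (0.0128%). The line difference at 1.5 mm differed from that in pollen at 432 of 7839 probes (5.51%), 242 of them higher (3.09%) and 190 lower (2.42%) at 1.5 mm.

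**Figure D5:**
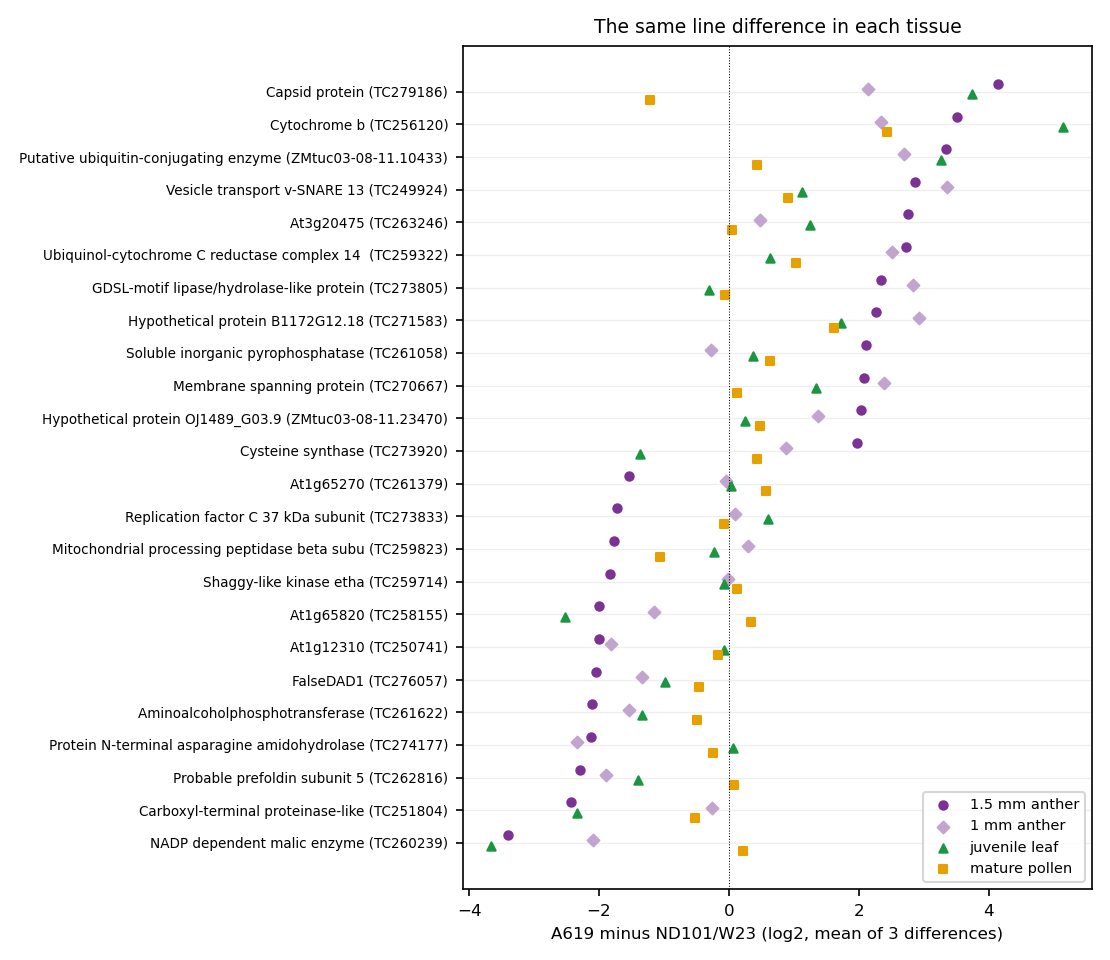
Mean difference A619 minus ND101/W23 (log2) in each of the 4 tissues (1 symbol per tissue) for the same 24 named products. The 1 mm points of the v-SNARE and CR14 rows lie near their 1.5 mm points, while those of inorganic pyrophosphatase, the Shaggy-like kinase and the replication factor C subunit lie near 0.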

How the data were processed

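RNA of A619 and of ND101/W23 was hybridized against W23 RNA on 2-colour Agilent arrays, 3 per line and tissue. The deposited values are log2 ratios, which the authors made with Agilent Feature Extraction. They dropped saturated spots, kept probes above a threshold set on negative controls, normalized within arrays on rank-invariant probes and by loess, and scaled triplicates to 1 variance. That scaling and the filter on signal affect the spread and the set of probes, 7900 of 21939. The arrays of a number share a W23 sample according to the study. The values were examined for this: deviations from the line means correlated between lines at 0.26 to 0.63 where the number was shared and at -0.47 to 0.23 where it was not. Deviations from a mean of 3 push the values for unshared numbers down. Arrays of a number also had the same dye label in both lines. The correlations therefore cannot single out the W23 sample as what is shared. The 3 differences within numbers were tested against 0 with limma 3.58.1 in R 4.3.3 (lmFit, eBayes, two-sided) over the 7873 probes with all 6 values, with Benjamini-Hochberg adjustment, after a test on simulated data, and the line difference was compared between tissues by a contrast of these differences. Errors are standard errors from limma. The 3 samples of a line are biological replicates per the labels, and their number limits the precision.

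Lists were described by counts and medians. Of these, 6 are tables of the study and 16 rest on words in product names. The study's tables were joined by probe number with an offset of 3, at which 22 of 22 accessions known from both sources matched. The rule for naming covers the 12 highest and 12 lowest called probes with a product name, both extremes, the qRT-PCR panel, stage markers and up to 4 called members of a list, of which some are given only in counts and ranges. Beyond this rule, chosen after their values were seen, are the 8 called platform genes, the GOS12-like SNARE, acyl-peptide hydrolase, oxoacyl synthase, kinesin heavy chain, PP1 phosphatase, calcium-dependent kinase, phosphomevalonate kinase, transcriptional adaptor and those so described. Gene symbols come from the platform annotation, with older names from RefSeq (Zm-B73-REFERENCE-NAM-5.0). Alternatives were an unpaired fit, centred or rescaled arrays, other probe filters, 1 fit over 12 differences, Rank Products and leaving out replicates. The members and lists were chosen with earlier results of these data known. Tables and plots used Python 3.11.15, pandas 2.3.3 and matplotlib 3.10.9. Signal intensities are not analysed here.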

Additional observations from a re-analysis of the deposited data

Results flagged for a closer look

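Among the 26 probes at the ends of the range (the 12 highest and 12 lowest with a product name and both extremes), the line difference A619 minus ND101/W23 in 1.5 mm anthers was set against that in each other tissue. It differed from juvenile leaf at 15, from mature pollen at 20 and from 1 mm anthers at 0 of the 26 (limma adjusted p under 0.05), beside 28.1%, 5.51% and 0.0127% of all probes. Since these probes were chosen for large values at 1.5 mm, a gap in this direction is favoured by the choice. Over all probes, the difference from 1 mm anthers was called at probe 19311 alone, with 2.69. Values below are the log2 difference at 1.5 mm minus that in the other tissue.

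The differences that were higher at 1.5 mm than in leaf were 5.85 for the unknown product of probe 3673, 3.34 for cysteine synthase, 2.66 for the GDSL-motif lipase-like transcript, 1.79 for the hypothetical protein of probe 3067, 1.74 for inorganic pyrophosphatase, 1.74 for the v-SNARE and 1.51 for the At3g20475-like transcript. Those lower at 1.5 mm than in leaf were -4.52 for probe 9285, -2.32 for the replication factor C subunit, -2.18 for the asparagine amidohydrolase-like transcript, -1.93 for the At1g12310-like transcript, -1.77 for the Shaggy-like kinase, -1.58 for the At1g65270-like transcript, -1.53 for the mitochondrial processing peptidase and -1.05 for FalseDAD1.

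Against mature pollen, the higher differences were 5.37 for the capsid-like sequence, 4.10 for probe 3673, 2.91 for the ubiquitin-conjugating enzyme-like transcript, 2.71 for the At3g20475-like transcript, 2.40 for the GDSL-motif lipase-like transcript, 1.95 for the v-SNARE, 1.70 for CR14, 1.56 for probe 3067 and 1.54 for cysteine synthase. The lower ones were -3.63 for the malic enzyme, -2.38 for the prefoldin subunit, -2.35 for the At1g65820-like transcript, -2.11 for the At1g65270-like transcript, -1.96 for the Shaggy-like kinase, -1.91 for the carboxyl-terminal proteinase, -1.87 for the asparagine amidohydrolase-like transcript, -1.83 for the At1g12310-like transcript, -1.64 for the replication factor C subunit, -1.61 for aminoalcoholphosphotransferase and -1.59 for FalseDAD1. Among the 35 other called probes covered by the naming rule, 23 differed from leaf, by 0.62 to 3.40 in size, and 16 from pollen, by 1.1 to 3.93. Groups of 3 arrays were too small to test single arrays as outliers.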

How the results depend on the processing

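Without the pairing by replicate number (no replicate block), 302 probes were called in place of 822, and 0 in place of 1 against 1 mm anthers, 1141 in place of 2209 against leaf, 153 in place of 432 against pollen and 19 in place of 51 lower on the 1 mm anther list. Of the 61 called probes covered by the naming rule, 34 stayed called without the pairing and 27 did not. Scaling all arrays to the same median absolute deviation gave 365, 1225 against leaf, 194 against pollen and 16 on the list. Rank Products, the test of the methods, gave 187 (102 higher, 85 lower), and 9 on the list. With 1 fit over the 12 differences of all tissues, 110 probes differed from 1 mm anthers and 83 list members were lower. The cause was not tested for these. Leaving out a replicate, and so fitting fewer samples, gave 0 to 33 probes, 0 to 0 against 1 mm anthers (867 to 1442 at an unadjusted p under 0.05), 1398 to 1957 against leaf, 75 to 294 against pollen and 0 to 0 on the list (89 to 117 at an unadjusted p under 0.05).

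Centring the arrays, other filters on missing values and dropping the condition on signs kept the count within 1.5 times. No called probe covered by the naming rule reversed. Of 19 not called, the signs that turned after scaling gave -0.43 for TC270572, -0.071 for probe 14410, -0.0079 for TC273423 and 0.018 for probe 6274. Leaving out a replicate spread the values over 0 for 6 of them, from -0.28 to 2.11 for TC247876, -0.095 to 0.37 for TC259707, -0.145 to 0.18 for TC273423, -0.16 to 0.115 for probe 6274, -0.29 to 0.155 for NP229344 and -0.97 to 0.40 for ycf3. The counts and medians of the 1 mm anther list under these alternatives were added after seeing the data. Signal over background was not known from the ratios, which limits what can be said of weak transcripts.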
